A study of Mus musculus with 20 samples.

Results

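The cytosolic and mitochondrial heat shock genes described here are the 10 genes *Hspa1a*, *Hspa1b*, *Hspa8*, *Hsph1*, *Dnajb1*, *Hsp90aa1*, *Hsp90ab1*, *Hspb1*, *Hspd1* and *Hspe1*, chosen by name for their function among 17211 genes measured in mouse brain. All 10 were measured in every brain. PolyA RNA was sequenced from the brains of 10 *Winnie* mice and 10 C57BL/6 mice, both aged 14 weeks and from 1 breeding colony, with 5 animals labelled female and 5 labelled male in each genotype. *Winnie* mice carry a missense mutation in the intestinal mucin gene *Muc2* and develop colitis without treatment. Neither genotype was treated. The comparison asks how the brain transcriptome differs between mice with chronic intestinal inflammation and controls from the same colony.

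Heat shock proteins are molecular chaperones, which bind unfolded or partly folded proteins and help them reach or keep their shape. The HSP70 proteins work in cycles driven by ATP, in which J-domain proteins such as DNAJB1 deliver clients and HSP110 proteins such as HSPH1 exchange the nucleotide. Clients can then pass to HSP90, while HSP60 and HSP10, encoded by *Hspd1* and *Hspe1*, form the folding chamber of the mitochondrial matrix. Heat shock factor 1 switches many of these genes on by binding inverted repeats of a short GAA unit, and the constitutive members are kept at high levels in brain tissue.

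All 10 heat shock genes had a lower mean in *Winnie* than in C57BL/6 brains, at 68.0% to 95.7% of the C57BL/6 level, and the difference passed the test for *Hsph1* and *Hspe1*. The test was limma on log2(CPM + 0.5) over all genes, where CPM (the read count scaled to a common total) is the level of a gene and FDR is the p-value adjusted over all 17211 genes. With an FDR below 0.05 as the call, 2 heat shock genes were lower and 0 were higher in *Winnie*, against 1.01% of all genes lower and 1.52% higher. At an unadjusted p under 0.05, 8 of the 10 were lower and 0 higher, against 8.08% of all genes lower. The share of all genes higher at that p is not given here. By edgeR and DESeq2 on the recovered reads, 0 of the 10 were called higher as well. The 10 genes were chosen with earlier results of these data known, so their shares beside all genes are a description and not a test. The median log2 fold change of the 10 genes was −0.18, against 0.0022 over all genes, of which 49.0% had a lower mean in *Winnie*. The stricter rule of the study's methods, an FDR under 0.001 with a minimum fold change, was met by 0 of the 10 and by 0 of all 17211 genes in limma. The methods name edgeR for that rule, with 8 C57BL/6 and 6 *Winnie* brains. The study reported differing genes of tryptophan and nicotinamide metabolism in brain. Here the rule is given for limma on 20 brains only. In bulk tissue, fewer cells of a type and less RNA per cell cannot be told apart.

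Depth ranged from 16540303 to 23923769 reads per brain, so the least abundant of the genes, *Hspb1*, was measured with 37 to 122 reads and the most abundant, *Hsp90ab1*, with 25139 to 36724. The Y-linked gene *Ddx3y* went against the labelled sex in 9 of 10 C57BL/6 libraries and 0 of 10 *Winnie* libraries, so the sexes were not compared. With the labelled sex or with the *Ddx3y* level as a covariate, the same 2 heat shock genes passed. The library numbers in the labels run from 1 to 10 in C57BL/6 and from 11 to 20 in *Winnie*, so genotype and library order cannot be told apart. Markers placed the tissue as brain, with summed neuronal markers of 5330 to 6298 CPM in C57BL/6 and 5414 to 6043 CPM in *Winnie*. Of 37 markers for 8 cell or tissue types, 36 were measured and 1 passed, the endothelial tight junction gene *Cldn5*, which was lower in *Winnie* (16.4 ± 2.37 against 11.7 ± 1.70 CPM, SD, n = 10, limma FDR 0.00331). The other endothelial markers went both ways, with log2 fold changes of 0.09 for *Pecam1*, 0.09 for *Flt1* and −0.15 for *Kdr*. The summed endothelial markers averaged 117.4 CPM in C57BL/6 and 116.5 CPM in *Winnie*. All 5 red blood cell markers had lower means in *Winnie*, with sums of 93.6 to 208 and 40.6 to 149.8 CPM and none past the test, and the pituitary markers summed to at most 3.59 CPM in C57BL/6 but reached 27.2 CPM in 1 *Winnie* brain. The part of these markers in the differences of the heat shock genes was not tested.

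Sequence upstream of the genes was read because they are known targets of heat shock factor 1. RefSeq promoter windows (GRCm38.p6) were matched for 7 of the 10 genes, and *Hspa8*, *Hsp90aa1* and *Hsp90ab1* were not among them. The 7 genes had 10 windows of 250 bases, 1 before each start site, and 7 of the 10 (in 6 genes) held a pair of inverted heat shock units, spelled GAANNTTC or TTCNNGAA, each the same on both strands. Of the 7 genes, *Dnajb1* was the one with no pair in any of its windows. Of all 32851 windows of that length, 12.8% held such a pair. The 7 windows are not independent. The 2 windows of *Hsph1* overlap and hold the same pair, those of *Hspa1a* and *Hspa1b* are near-copies, and those of *Hspd1* and *Hspe1* share 1 stretch. That stretch holds 3 overlapping pairs, which make 2 overlapping runs of 3 alternating units. It counts both for *Hspe1* and for the second start of *Hspd1*, whose first start has no pair in its window. At least 1 run of 3 alternating units was in 0.47% of all windows. These matches describe the letters only. The stretches below show *Hspa1a*, *Hspa1b* and *Hspb1* in full to 150 bases before the start, because *Hspa1a* and *Hspa1b* are near-copies there. For the 2 genes that passed the test, the stretches show 30 bases around the match. They run 5′ to 3′ on the strand of the gene, with the matched units in capitals.
Hspa1a, chr17:34972157-34972306, minus strand: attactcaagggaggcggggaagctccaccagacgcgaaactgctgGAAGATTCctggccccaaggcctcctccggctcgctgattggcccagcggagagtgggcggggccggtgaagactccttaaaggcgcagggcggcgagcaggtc
Hspa1b, chr17:34959239-34959388, minus strand: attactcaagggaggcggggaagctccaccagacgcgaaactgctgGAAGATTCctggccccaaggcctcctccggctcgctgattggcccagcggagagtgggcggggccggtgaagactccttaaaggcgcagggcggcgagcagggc
Hspb1, chr5:135887769-135887918, plus strand: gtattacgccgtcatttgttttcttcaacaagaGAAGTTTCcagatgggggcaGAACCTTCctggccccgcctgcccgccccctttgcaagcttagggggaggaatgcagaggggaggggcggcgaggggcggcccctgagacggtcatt
Hspe1, chr1:55088053-55088082, plus strand: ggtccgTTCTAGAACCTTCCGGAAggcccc
Hsph1, chr5:149636351-149636380, minus strand: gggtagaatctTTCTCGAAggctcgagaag
Over the whole 250 bases, the upstream sequences of *Hspa1a* and *Hspa1b* differed at 3 positions. The first pair of units began 104 bases before the start in both genes, 117 bases before it in *Hspb1*, 89 in *Hspe1* and 33 before the first of the start sites of *Hsph1*. The GENCODE span of *Hsph1* begins before both of its RefSeq starts, so its pair lies within the annotated gene and is upstream of the RefSeq starts only. The runs before *Hspe1* lie within the annotated span of *Hspd1*, which is read in the opposite direction. Between the *Hspe1* start and the second RefSeq start of *Hspd1* lie 215 bases. The first *Hspd1* start lies past that of *Hspe1*, so that the genes overlap there.

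*Hspa1a* and *Hspa1b* encode strongly inducible cytosolic HSP70 proteins from single-exon genes of mouse chromosome 17 (GRCm38 chr17:34969190-34972156 and chr17:34956436-34959238, minus strand, GENCODE M21). *Hspa1a* ranged from 3.83 to 8.36 CPM in C57BL/6 brains (median 4.91) and from 2.94 to 5.57 CPM in *Winnie* brains (median 4.26). *Hspa1b* ranged from 3.30 to 9.71 CPM in C57BL/6 (median 5.68) and from 3.42 to 5.21 CPM in *Winnie* (median 4.08). The genotypes overlapped, and the C57BL/6 brains were the more spread, with a coefficient of variation of 30.7% for *Hspa1a* and 37.0% for *Hspa1b* against 16.4% and 14.3% in *Winnie*. C57BL/6 replicates 1, 3, 5 and 10 lay above every *Winnie* brain for both genes.
The log2 fold change of *Hspa1a* was −0.38 (SE 0.130, 95% CI −0.64 to −0.11, limma FDR 0.114), and the exact two-sided permutation p over all 184756 assignments of the brains was 0.0193. For *Hspa1b* the log2 fold change was −0.44 (SE 0.154, 95% CI −0.76 to −0.12, limma FDR 0.125, exact permutation p = 0.0171), so neither passed the test over all genes. Reads of the pair cannot be fully assigned to 1 gene: 47.1% of the 100-base windows of the *Hspa1a* transcript also occur in *Hspa1b*, and 49.9% the other way round. *Hspa1a* also overlaps the annotated gene *Gm20481* on the opposite strand, and the strand setting of the counting is not given in the sources used here. Summed, the pair measured 12.1 ± 3.98 CPM in C57BL/6 and 8.51 ± 1.07 CPM in *Winnie* (SD, n = 10), with a log2 fold change of −0.43 (SE 0.144, limma FDR 0.113).

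*Hspa8*, the constitutive HSP70 that also strips clathrin from vesicles (chr9:40800984-40810087, plus strand), was measured with 13355 to 23081 reads per brain. It ranged from 758 to 972 CPM in C57BL/6 (median 869.7) and from 749 to 852 CPM in *Winnie* (median 793). All 10 *Winnie* brains lay under the C57BL/6 median and 8 C57BL/6 brains lay above the highest *Winnie* brain. Its log2 fold change was −0.13 (SE 0.0383, 95% CI −0.21 to −0.05, exact permutation p = 0.00449), with a limma FDR of 0.0655, over the threshold.

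Among 15158 other genes, the one whose level followed *Hspa8* most closely across the 20 brains, with genotype means removed, was *Gm15459* (Pearson's r = 0.92), followed by *Kcnf1* (0.84) and *Irgq* (0.80). *Gm15459* is annotated as a processed pseudogene, and 72.9% of the 100-base windows of its transcript occur in an *Hspa8* transcript. The table lists it at 337 CPM in C57BL/6 and 301.5 CPM in *Winnie*, and it lists a second such copy, *Gm8355*, at 49.0 and 40.6 CPM. Pseudogene rows also share windows with *Hsp90aa1* (3 rows), *Hspb1* (1) and *Hspd1* (1), while *Hsph1*, *Dnajb1*, *Hsp90ab1* and *Hspe1* share none with another listed gene. With the pseudogene rows added in, an alternative chosen after seeing the data, *Hspa8* measured 1264 ± 101 CPM in C57BL/6 and 1144 ± 50.9 CPM in *Winnie* (SD, n = 10, log2 fold change −0.14, limma FDR 0.0519). The limma FDR became 0.157 for *Hsp90aa1*, 0.250 for *Hspb1* and 0.134 for *Hspd1*, and the 2 genes that passed were again *Hsph1* and *Hspe1*.

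*Hsph1*, the HSP110 protein that frees HSP70 from ADP (chr5:149614287-149636376, minus strand), was lower in *Winnie* brains. It ranged from 221 to 321 CPM in C57BL/6 (median 262) and from 187 to 261 CPM in *Winnie* (median 226). All 10 *Winnie* brains lay under the C57BL/6 median, 4 lay under the lowest C57BL/6 brain, and 5 C57BL/6 brains lay above every *Winnie* brain. The mean fell from 266 ± 30.2 to 224 ± 22.8 CPM (SD, n = 10), a log2 fold change of −0.25 (SE 0.0629, 95% CI −0.38 to −0.12, limma FDR 0.0363, exact permutation p = 0.00208). The call did not hold without C57BL/6 replicate 3, 4, 5 or 8 or without *Winnie* replicate 2, 3, 5, 8, 9 or 10, where the limma FDR was 0.0533 to 0.0803. The log2 fold change stayed between −0.28 and −0.22 with any 1 brain left out.

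*Dnajb1*, the J-domain partner that stimulates HSP70 (chr8:83608193-83612653, plus strand), ranged from 40.7 to 75.5 CPM in C57BL/6 (median 48.1) and from 37.9 to 57.4 CPM in *Winnie* (median 47.0). The medians lay close together, and 3 C57BL/6 brains stood above every *Winnie* brain. Its log2 fold change was −0.15 with a 95% CI of −0.37 to 0.06 (SE 0.105, limma FDR 0.474, exact permutation p = 0.177), so its interval held 0.

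**Figure D1:**
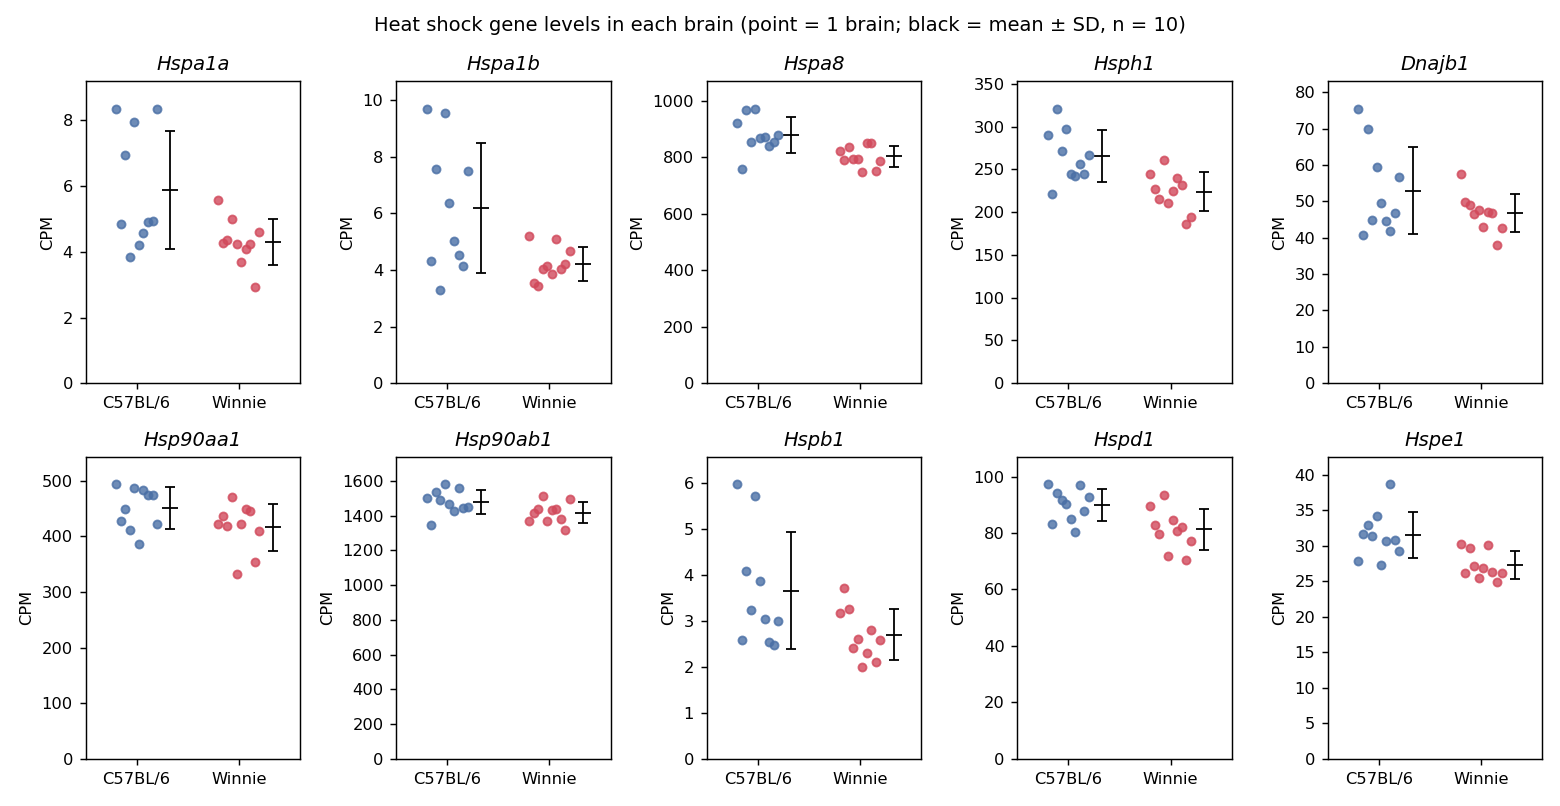
CPM of the 10 heat shock genes in each brain, 1 panel per gene, with each vertical axis starting at 0. Points are single brains and the black mark and bar give the mean and SD of 10 brains. *Winnie* means are lower in every panel, from 68.0% of the C57BL/6 mean for *Hspa1b* to 95.7% for *Hsp90ab1*, and a few C57BL/6 brains stand high for *Hspa1a*, *Hspa1b*, *Dnajb1* and *Hspb1*.

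The HSP90 genes, whose proteins hold kinases, steroid receptors and other clients near their folded state, showed the smallest log2 fold changes. *Hsp90aa1*, the more inducible form (chr12:110690605-110702728, minus strand), ranged from 386 to 493 CPM in C57BL/6 (median 461) and from 333 to 470.1 CPM in *Winnie* (median 422). Its log2 fold change was −0.12 (SE 0.0559, 95% CI −0.23 to −0.00305, limma FDR 0.268, exact permutation p = 0.0747). *Hsp90ab1*, the constitutive form (chr17:45567775-45573271, minus strand), ranged from 1349 to 1581 CPM in C57BL/6 (median 1477) and from 1320.0 to 1514 CPM in *Winnie* (median 1423). The genotypes overlapped over most of their range, with 3 C57BL/6 brains above every *Winnie* brain, and the log2 fold change was −0.06 (SE 0.0318, 95% CI −0.13 to 0.0024, limma FDR 0.306, exact permutation p = 0.0454).

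*Hspb1*, a small heat shock protein that holds unfolded proteins without ATP and binds actin (chr5:135887919-135889563, plus strand), ranged from 2.49 to 5.98 CPM in C57BL/6 (median 3.15) and from 2.01 to 3.73 CPM in *Winnie* (median 2.61). Under the lowest C57BL/6 brain lay 4 *Winnie* brains, and 4 C57BL/6 brains lay above the highest *Winnie* brain. Its log2 fold change was −0.34 (SE 0.134, 95% CI −0.62 to −0.06, limma FDR 0.171, exact permutation p = 0.0341). The size came close to that of *Hspa1a*, and so did the spread in C57BL/6, with a coefficient of variation of 34.8% against 20.3% in *Winnie*.

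*Hspd1* and *Hspe1* encode the mitochondrial chaperonin HSP60 and its lid HSP10, and lie head to head on chromosome 1 (chr1:55077835-55088243, minus strand, and chr1:55088132-55091307, plus strand) with overlapping starts. *Hspe1* was lower in *Winnie* brains: it ranged from 27.4 to 38.7 CPM in C57BL/6 (median 31.1) and from 24.9 to 30.3 CPM in *Winnie* (median 26.6). Of the *Winnie* brains 7 lay under the lowest C57BL/6 brain, 7 C57BL/6 brains lay above the highest *Winnie* brain, and all 10 *Winnie* brains lay under the C57BL/6 median. The log2 fold change was −0.20 (SE 0.0537, 95% CI −0.31 to −0.09, limma FDR 0.0419, exact permutation p = 0.00183). Leaving out C57BL/6 replicate 2, 3, 4, 5, 7, 8 or 9 or *Winnie* replicate 2, 4, 5, 6, 8, 9 or 10 took the limma FDR of *Hspe1* to 0.0503 to 0.0942, while its log2 fold change stayed between −0.22 and −0.16.
*Hspd1* ranged from 80.4 to 97.3 CPM in C57BL/6 (median 90.9) and from 70.4 to 93.5 CPM in *Winnie* (median 81.4). Of the *Winnie* brains, 9 lay under the C57BL/6 median and 4 under the lowest C57BL/6 brain. Its log2 fold change was −0.15 (SE 0.0472, 95% CI −0.24 to −0.05, exact permutation p = 0.00875), with a limma FDR of 0.0843.

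**Figure D2:**
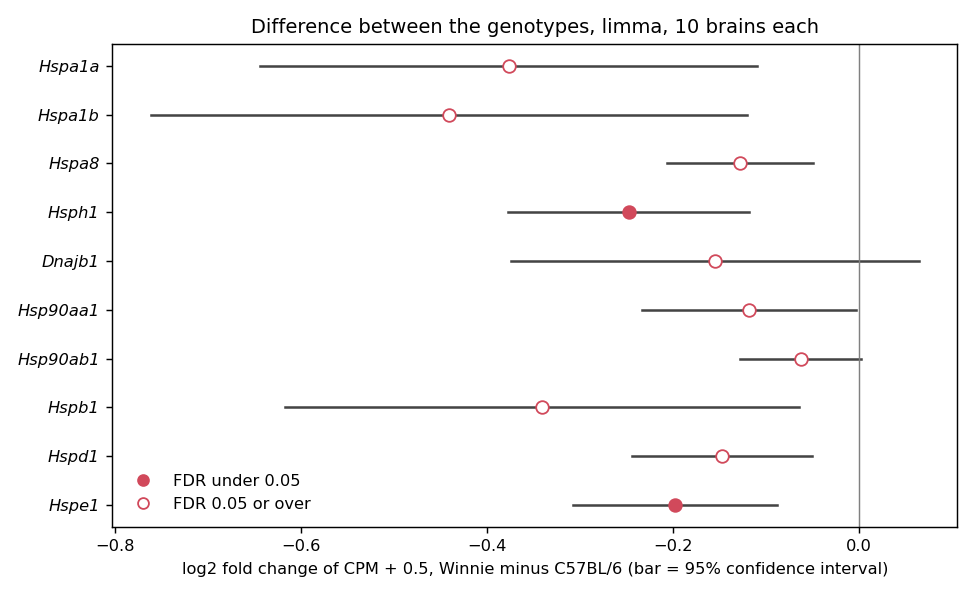
Log2 fold change of CPM + 0.5, *Winnie* minus C57BL/6, for the 10 heat shock genes, with 95% confidence intervals from limma over 10 brains per genotype. Filled points passed an FDR of 0.05. All 10 points lie left of 0, the intervals of *Dnajb1* and *Hsp90ab1* cross it, and the widest intervals belong to the genes with the fewest reads, *Hspa1a*, *Hspa1b* and *Hspb1*.

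The 10 genes spanned a wide range of levels per length. Per kilobase of annotated exon in C57BL/6 brains, *Hsp90ab1* measured 493 ± 23.1 CPM, *Hspa8* 204 ± 14.7 and *Hsp90aa1* 115 ± 9.51 (SD, n = 10), with no overlap between brains of neighbouring genes. *Hsph1* (36.6 ± 4.15 CPM per kilobase) and *Hspd1* (34.02 ± 2.19) overlapped each other, as did *Hspe1* (21.4 ± 2.22) and *Dnajb1* (16.5 ± 3.76). *Hspb1* (3.55 ± 1.24) overlapped *Hspa1b* (2.21 ± 0.818), which overlapped *Hspa1a* (1.98 ± 0.608). In *Winnie* brains the order was the same, from 472 ± 20.1 CPM per kilobase for *Hsp90ab1* to 1.45 ± 0.237 for *Hspa1a*.

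Most pairs of heat shock genes had a positive correlation across brains. With the genotype means removed, Pearson's r was above 0 in 42 of the 45 pairs (93.3%), with a median of 0.49 and a range of −0.11 to 0.81. Over all pairs of the 15168 genes with a mean of at least 1 CPM, 55.5% were above 0 and the median was 0.04, given as a description. In the 6 pairs among *Hspa1a*, *Hspa1b*, *Dnajb1* and *Hspb1*, r was 0.59 to 0.81. For *Hspa1b* these values rest on C57BL/6: its r with *Hspb1* was 0.82 in C57BL/6 and −0.26 in *Winnie*, and 0.24 overall without the 2 brains farthest from the median of *Hspa1b*. Its r with *Dnajb1* was 0.86 in C57BL/6 and 0.16 in *Winnie*. Values of 1 library share its total and its handling, and *Hspa1a* and *Hspa1b* also share reads.
*Hspa8* and *Dnajb1* had r = 0.76 and Spearman's rho = 0.79 (permutation p = 0.00024 and 0.00013, adjusted over the 45 pairs 0.00279 and 0.00255), and r = 0.69 without the 2 brains farthest from the median of *Hspa8*. For *Hspa8* and *Hsph1*, r was 0.72 and rho 0.65 (permutation p = 0.00052 and 0.00371, adjusted 0.0039 and 0.0209), and r was 0.59 without 2 brains. *Hspa1a* and *Hspa1b* had r = 0.76 and rho = 0.68 (permutation p = 0.00148 and 0.00884, adjusted 0.00951 and 0.0332), with r = 0.67 without 2 brains, 0.87 within C57BL/6 and 0.28 within *Winnie*.
For the other pairs named here r was lower, a difference that was not tested. *Hsp90aa1* and *Hsp90ab1* had r = 0.49 and rho = 0.48 (permutation p = 0.0338 and 0.0382, adjusted 0.0661 and 0.0801) and r = 0.31 without 2 brains. *Hspd1* and *Hspe1*, which lie head to head, had r = 0.38 and rho = 0.36 (permutation p = 0.0917 and 0.127, adjusted 0.153 and 0.208) and r = 0.23 without 2 brains.

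**Figure D3:**
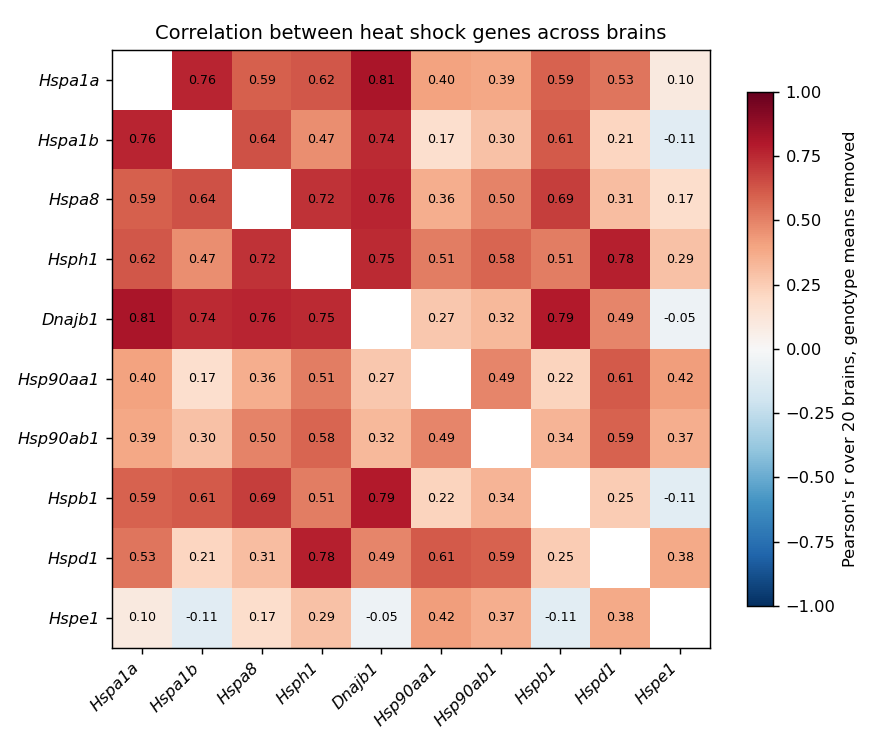
Pearson's r between each pair of heat shock genes over 20 brains after subtracting each genotype's mean, red above 0 and blue under 0. *Hspa1a*, *Hspa1b*, *Hspa8*, *Hsph1*, *Dnajb1* and *Hspb1* form a block of r from 0.47 to 0.81, and *Hspe1* stands apart from it with r from −0.11 to 0.29.

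A few brains carried the high values. C57BL/6 replicates 1, 3 and 5 were among the highest 3 of their genotype for 8, 8 and 9 of the 10 genes, and C57BL/6 replicate 2 was among the lowest 3 for 7. In *Winnie*, replicate 1 was among the highest 3 for 7 genes and replicate 9 among the lowest 3 for 9. The genes closest to the mean of the 10 scaled heat shock genes across brains were *Hexim1* (r = 0.88), *Siah2* (0.86) and *Fam207a* (0.86), and none of these 3 differed between genotypes past the test (limma FDR 0.356, 0.629 and 0.608).

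In C57BL/6, the brains with high inducible HSP70 were those with high immediate-early genes, which neurons switch on within minutes of activity. This relation was looked at after the values were seen. The summed level of 10 immediate-early genes was 1358, 1899, 1714 and 1066 CPM in C57BL/6 replicates 1, 3, 5 and 10, and 441 to 924 CPM in the other C57BL/6 brains. The same 4 brains had the highest sums of *Hspa1a* and *Hspa1b*, from 14.5 to 18.04 CPM against 7.13 to 10.5 CPM. In *Winnie* brains the immediate-early sum ranged from 405 to 1230 CPM and the *Hspa1a* and *Hspa1b* sum from 7.14 to 10.8 CPM. The immediate-early sum was 941 to 1230 CPM in *Winnie* replicates 1 to 5 (labelled female, library numbers 11 to 15). It was 405 to 836 CPM in *Winnie* replicates 6 to 10 (labelled male, library numbers 16 to 20). Of the high C57BL/6 brains, replicates 1, 3 and 5 were labelled female and replicate 10 male. The part of labelled sex and library order in the relation was not tested. *Winnie* replicates 1, 3 and 5 exceeded C57BL/6 replicate 10 in the immediate-early sum but had 10.8, 7.78 and 8.37 CPM of the pair.
On the log2 scale with genotype means removed, the 2 sums had r = 0.74 and rho = 0.75 over 20 brains (1 relation tested, permutation p = 0.00106 and 0.00042), and r = 0.76 without the 2 brains farthest from the median of the immediate-early sum. Within C57BL/6 r was 0.88 and within *Winnie* 0.29, a difference that was not tested. Over the single genes, r with the immediate-early sum ran from −0.06 for *Hsp90aa1* and −0.04 for *Hspe1* to 0.74 for *Hspb1* and 0.78 for *Dnajb1*.
The immediate-early list itself held 0 of 10 genes past the test in limma, with 1 lower and 0 higher at an unadjusted p under 0.05 and 1 lower (*Npas4*) by DESeq2. With the immediate-early sum as a covariate, chosen after seeing the data, 5 heat shock genes passed: *Hspa1a* (limma FDR 0.0414), *Hspa1b* (0.0325), *Hspa8* (0.0354), *Hsph1* (0.0168) and *Hspe1* (0.0388). Their log2 fold changes were −0.36, −0.42, −0.12, −0.24 and −0.20, near those without the covariate. The fit used 1 slope for both genotypes. In the same order, r with the immediate-early sum was 0.79, 0.90, 0.90, 0.86 and −0.12 within C57BL/6. Within *Winnie* it was 0.41, 0.0033, 0.13, −0.07 and 0.12.

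**Figure D4:**
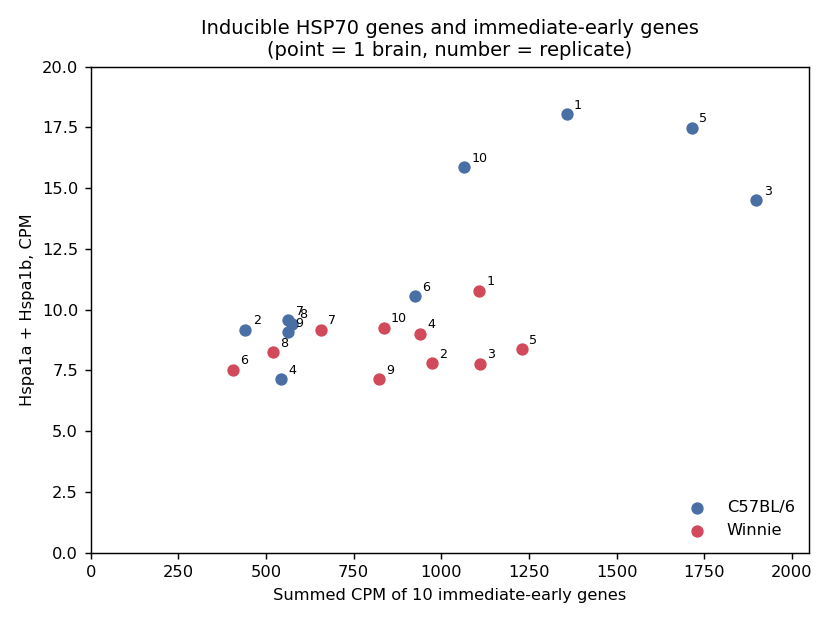
Summed CPM of *Hspa1a* and *Hspa1b* (vertical axis) against the summed CPM of 10 immediate-early genes (horizontal axis), 1 point per brain with its replicate number. C57BL/6 replicates 1, 3, 5 and 10 lie highest, with 14.5 to 18.04 CPM of the pair, and all *Winnie* brains lie at or under 10.8 CPM.

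Other genes of the chaperone system were read from 9 lists of 103 genes, of which 101 were measured. In *Winnie*, 9 of these genes (8.91%) were lower by the limma call and 0 were higher, and at an unadjusted p under 0.05 there were 24 lower and 4 higher. Of all genes, 1.01% were lower and 1.52% higher by the limma call, and 8.08% were lower at an unadjusted p under 0.05. The share of all genes higher at that p is not given, so the 4 higher have no background here. These lists were also chosen with earlier results of the data known, so the shares are a description. By edgeR 1 listed gene was higher, *Fkbp5*, and by DESeq2 also 1.

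J-domain co-chaperones held 3 of 18 genes lower: *Dnaja4*, *Dnaja1* and *Dnajb2*, all of them partners of HSP70. *Dnaja4* measured 41.9 to 56.5 CPM in C57BL/6 and 34.2 to 43.2 CPM in *Winnie*, with 9 *Winnie* brains under the lowest C57BL/6 brain (log2 fold change −0.27, SE 0.0529, limma FDR 0.00865). *Dnaja1* measured 124.5 to 145 CPM and 106 to 136 CPM, with 8 *Winnie* brains under the lowest C57BL/6 brain (log2 fold change −0.19, SE 0.0421, limma FDR 0.0143). *Dnajb2*, which is enriched in neurons, had a log2 fold change of −0.20 (SE 0.0463, limma FDR 0.0194). The median log2 fold change of the list was −0.02.

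The HSP90 co-chaperones held 4 of 20 genes lower and 17 of 20 with a lower mean, with a median log2 fold change of −0.09. *Ptges3*, the p23 protein that holds HSP90 closed, measured 62.8 to 80.4 CPM in C57BL/6 and 53.6 to 67.0 CPM in *Winnie* (log2 fold change −0.24, SE 0.0473, limma FDR 0.00865). *Ahsa1*, which activates the HSP90 ATPase, measured 76.7 to 91.7 CPM and 62.0 to 77.6 CPM, with 8 *Winnie* brains under the lowest C57BL/6 brain (log2 fold change −0.19, SE 0.0431, limma FDR 0.0168). *Stip1*, the HOP adaptor that joins HSP70 to HSP90, had a log2 fold change of −0.16 (SE 0.0409, limma FDR 0.0321). *Fkbp4*, an immunophilin that binds HSP90 and was named after its values were seen, had −0.19 (SE 0.0488, limma FDR 0.0366).
Without 1 brain at a time, the limma FDR reached 0.0754 for *Stip1* and 0.0847 for *Fkbp4*, with 5 and 7 of the 20 fits at or above 0.05, the highest of both without C57BL/6 replicate 5. *Ptges3* and *Ahsa1* stayed under 0.05 in all 20.

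*Cryab*, the αB-crystallin of oligodendrocytes and astrocytes, had the largest fold among the listed genes that passed. It measured 140.4 to 194 CPM in C57BL/6 and 107 to 159.6 CPM in *Winnie*, with 9 of 10 *Winnie* brains under the lowest C57BL/6 brain (log2 fold change −0.37, SE 0.0716, limma FDR 0.00904). All 5 oligodendrocyte markers had lower means in *Winnie*, with a median log2 fold change of −0.05 and none past the test (*Cnp* −0.14, limma FDR 0.142), and of the 5 astrocyte markers 3 had lower means (*Aqp4* −0.16, limma FDR 0.180); their part in the difference of *Cryab* was not tested. *Cryab* was the 1 gene of 6 measured small heat shock proteins that passed. *Serpinh1*, the collagen chaperone HSP47 of the endoplasmic reticulum, was the 1 of 6 other heat-inducible genes that passed, at 16.4 to 25.1 CPM in C57BL/6 and 13.03 to 18.4 CPM in *Winnie* (log2 fold change −0.34, SE 0.0793, limma FDR 0.0214). Its limma FDR was 0.0512 without C57BL/6 replicate 5 and under 0.05 without any other single brain. The heat-inducible *Ier5* had a log2 fold change of −0.19 (limma FDR 0.512).

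The other lists held 0 genes past the limma test. In the CCT chaperonin and prefoldin, which fold actin and tubulin, 13 of 14 genes had a lower mean, with a median log2 fold change of −0.08 and 5 lower at an unadjusted p under 0.05. *Pfdn1* led this list (−0.17, limma FDR 0.0631) and passed by edgeR, DESeq2 and voom. In the mitochondrial chaperones and proteases, the median log2 fold change was −0.01, with 0 of 15 past an unadjusted p under 0.05 and 0 by edgeR, DESeq2 or voom, although *Hspd1* and *Hspe1* work in the same compartment. *Trap1*, the mitochondrial HSP90, had a log2 fold change of −0.03 (95% CI −0.12 to 0.06).
Among the heat shock factors, *Hsf1*, the main activator of these genes, measured 39.5 ± 3.87 CPM in C57BL/6 and 37.4 ± 1.93 CPM in *Winnie* (SD, n = 10), with a log2 fold change of −0.07 (SE 0.0502, limma FDR 0.468), and *Hsf2* had 0.09 (limma FDR 0.258). DESeq2 and edgeR called 0 of the factors. The other HSP70 and HSP110 proteins and exchange factors had a median log2 fold change of −0.0031, with *Bag1* at −0.14 (limma FDR 0.146, lower by DESeq2) and *Bag6* at 0.08 (limma FDR 0.163). The cold-inducible RNA-binding proteins *Rbm3* and *Cirbp* had log2 fold changes of 0.21 each (95% CI −0.02 to 0.44 and −0.03 to 0.44, limma FDR 0.325 and 0.349).

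**Figure D5:**
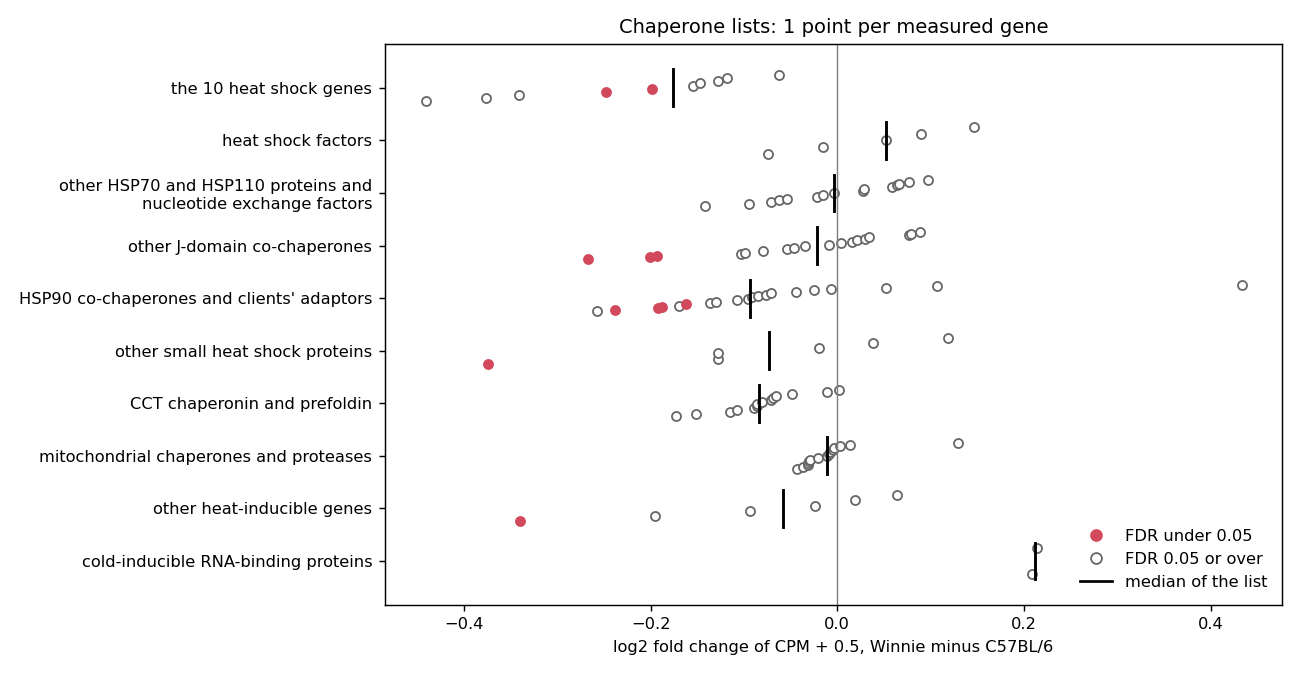
Log2 fold change of CPM + 0.5, *Winnie* minus C57BL/6, for each measured gene of the 10 heat shock genes and of 9 chaperone lists. Filled points passed an FDR of 0.05 and black bars are medians of the lists. The 11 filled points all lie left of 0, 2 in the heat shock genes, 3 in the J-domain co-chaperones, 4 in the HSP90 co-chaperones and 1 each in the small heat shock proteins and other heat-inducible genes.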

How the data were processed

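Reads were processed by the authors with RNAsik 1.5.4 on GRCm38, counted per gene with featureCounts, and deposited as CPM from Degust; the aligner and the strand setting are not given in the sources used here. Every deposited CPM value came out as a whole number of reads within 0.1 (100% of values), and each of the 17211 genes reached 0.5 CPM in at least 4 samples. All 20 labelled samples were used, 10 per genotype and each from 1 mouse, whereas the methods name 8 C57BL/6 and 6 *Winnie* brains.

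Genes were compared with limma 3.58.1 (R 4.3.3) on log2(CPM + 0.5), with trend and robust variances. The fold change understates the change of low genes. FDR is the Benjamini-Hochberg adjusted p over all genes, and an FDR under 0.05 was called. Single genes were also compared by exact two-sided permutation of the 20 brains, and correlations by 100000 permutations within genotype. The rule named the 10 genes, the 3 genes of each list with the smallest p, and the 3 genes most like *Hspa8* and the 10 genes' mean. A gene that this rule names is not reported here. The members and lists were chosen with earlier results of these data known. Alternatives on recovered reads used edgeR 4.0.16, DESeq2 1.42.0 and voom. Fits were tested on simulated data. Coordinates came from GENCODE M21, which held 17128 of the gene IDs, and transcripts were compared in windows of 100 bases, the read length. Sequences are from RefSeq.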

Additional observations from a re-analysis of the deposited data

How the results depend on the processing

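The number of heat shock genes past an FDR of 0.05 (2 in limma) was 2 with pseudocounts of 0.1 or 1, median-ratio scaling, genes under a mean CPM of 1 left out, labelled sex or *Ddx3y* as a covariate, *Hspa1a* and *Hspa1b* summed, pseudogenes summed, edgeR or voom, and 3 with quantile normalization. It was 6 with DESeq2 (with *Hspa1a*, *Hspa1b*, *Hspa8* and *Hspd1*), 5 with the immediate-early sum as a covariate, 4 at an FDR under 0.1 and 0 by the rule of the study applied to limma. For the 9 chaperone lists (9 in limma) the count was 17 with DESeq2, 14 at an FDR under 0.1 and 0 by the rule of the study applied to limma. With the title number as a replicate block, 1 heat shock gene (*Hsph1*) and 5 listed genes passed. Same-numbered brains correlated at −0.29 to 0.15 in their deviations, 2 of 10 pairs were over 0.1 and 1 brain correlated best with its own number. In the labels, same-numbered brains share the title number and the labelled sex, and no pairing is named. With 1 brain left out, the heat shock gene count ran from 0 to 2, the list count from 6 to 11 and the median correlation between heat shock genes from 0.41 to 0.52. No named gene changed direction in any alternative. Calls over all genes moved too, from 434 (173 lower) in limma to 968 (463 lower) of 14875 tested with DESeq2, 537 (213 lower) with the immediate-early covariate, 227 (80 lower) with the block and 169 to 694 with 1 brain left out. The cause of these shifts was not tested. The count over all genes at an FDR under 0.1 is not given here. Scaling, covariate and tool alternatives were not run for the correlations.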
